A study of Mus musculus with 9 samples.

Results

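The genes described here encode matricellular proteins, secreted proteins that sit in the extracellular matrix and act on cells more than they hold tissue together, and fibronectin, a main scaffold protein of that matrix. They are the thrombospondins Thbs1, Thbs2 and Thbs3, tenascin C (Tnc), Sparc, osteopontin (Spp1), the TGF-beta-induced protein Tgfbi, fibronectin (Fn1) and the fibulins Fbln1 and Fbln2. The genes were taken by name, with earlier results of these data known but with no threshold on a measured value, and every probe set listed under 1 of these symbols alone was used. Of the 10 genes, 9 had such a probe set, and together they had 22 of the 34945 single-gene probe sets of the array. Spp1 was not analysed here. All 9 genes passed the filter on low values and were tested among 15235 genes.

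RNA came from 170#3, a pancreatic cancer cell line from mice of a mixed C57BL6, FVB and 129Sv background, grown as a monolayer in DMEM with 10% FBS. All 9 cultures carried a stable transfection. In 3 it was the control, in 3 it expressed beta-catenin (Ctnnb1), the Wnt co-activator, and in 3 ICAT (Ctnnbip1), an inhibitor that occupies beta-catenin and keeps it from TCF factors. The labels name neither vector nor promoter and do not say whether a group is 1 clone or a pool, so a difference between groups cannot be told apart from a difference between clones. All results come from 1 cell line.

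Matricellular proteins are low in most resting adult tissues and appear in development, wounds and tumours. Pancreatic cancer is known for a dense matrix rich in fibronectin and collagen, in which thrombospondins, tenascin C, SPARC and TGFBI bind collagens, fibronectin and integrins and change how cells attach, migrate and respond to growth factors. Thrombospondin 1 can also release TGF-beta from its latent complex, and TGF-beta in turn induces TGFBI and fibronectin.

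Values are log2 expression on an array, so a difference of 1 is a 2-fold change. Array medians lay between 6.21 and 6.29, and the lowest correlation between replicates over all probe sets was 0.994. For control, beta-catenin and ICAT cultures in turn, the median SD between replicates was 0.0567, 0.0746 and 0.121 over all tested genes, and 0.0861, 0.0696 and 0.238 over the 9 genes. ICAT values therefore carried the largest error. The SE of a difference uses 1 spread per gene pooled over the 3 groups. It is thus the same in both lines and does not show a larger spread of the ICAT arrays. Ctnnb1 lay between 12.67 and 12.70 in control, 12.87 and 12.89 in beta-catenin and 12.78 and 13.00 in ICAT cells. Ctnnbip1 lay between 8.62 and 8.67, 8.72 and 8.82, and 8.65 and 8.95. A transfected coding sequence without the probed 3′ end would not be seen, so these values do not check the labels. Of 10 epithelial and ductal markers, Sox9 reached 9.62, Krt18 8.92, Epcam 7.65 and Krt8 7.60, each on an ICAT array. Their control means were 9.01, 7.23, 7.48 and 6.45. The highest arrays of Muc1, Cldn7, Cldn4 and Krt19 were at 7.02, 5.76, 5.67 and 5.66. Krt7 was not above 5.15 and Cdh1 not above 3.56 on any array. Of 9 leukocyte markers, Ptprc and Itgam were not above 4.50 and 4.19, and the highest arrays of the other 7 lay between 5.24 for Mrc1 and 8.40 for Cd14. In such bulk samples, more cells of a kind and more RNA per cell cannot be told apart. A gene was called when limma gave an adjusted p under 0.05 over all genes tested, and "rose" and "fell" are used only of called differences.

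The bases before the start sites of 3 of the genes are shown because these genes, all with an entry in the promoter table, are examples of the 2 patterns described below. Tgfbi and Tnc were highest in beta-catenin cells, and Thbs2 was highest in ICAT cells. The sequences are from RefSeq on GRCm38.p6, cover the 250 bases before the annotated start and are written 5′ to 3′ on the strand of the gene. They lie at chr13:56609336-56609585 on the plus strand for Tgfbi, chr4:64047016-64047265 on the minus strand for Tnc and chr17:14694263-14694512 on the minus strand for Thbs2. Capitals mark matches to the TATA box letters TATAAA and to the CCAAT box on either strand, and the Tgfbi window holds neither. The TATAAA matches of Tnc and Thbs2 lie at -126 to -121 from the start site, that of Thbs2 on the opposite strand. From another annotated start of Tnc the same match lies at -205 to -200. The Tnc window also overlaps the gene 8030451A03Rik. Whether these matches work as a TATA box was not tested.
Tgfbi: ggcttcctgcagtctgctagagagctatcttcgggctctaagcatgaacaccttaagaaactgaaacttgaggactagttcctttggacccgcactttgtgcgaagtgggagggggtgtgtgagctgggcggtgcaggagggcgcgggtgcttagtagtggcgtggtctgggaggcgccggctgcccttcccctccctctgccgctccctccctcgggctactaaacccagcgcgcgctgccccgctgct
Tnc: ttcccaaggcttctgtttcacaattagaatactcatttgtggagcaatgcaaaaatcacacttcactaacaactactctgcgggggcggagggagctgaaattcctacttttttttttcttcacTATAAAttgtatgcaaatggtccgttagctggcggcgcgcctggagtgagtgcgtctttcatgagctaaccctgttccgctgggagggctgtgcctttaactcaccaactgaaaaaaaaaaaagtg
Thbs2: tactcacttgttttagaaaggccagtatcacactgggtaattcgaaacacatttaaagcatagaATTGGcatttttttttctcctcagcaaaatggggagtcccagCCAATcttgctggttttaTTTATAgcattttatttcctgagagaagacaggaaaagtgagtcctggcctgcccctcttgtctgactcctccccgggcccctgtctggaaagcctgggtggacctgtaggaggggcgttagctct

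The promoter table held 7 of the 9 genes, with 9 start sites. The TCF/LEF sequence CTTTGAT, the AP-1 sequence TGANTCA, the palindromic SMAD sequence GTCTAGAC and the TEAD sequence GGAATG were searched on both strands of the same 250 bases, and none of the 9 windows held any of them. Of 32817 start sites in the table, 3.21% held the TCF/LEF sequence, 6.75% that of AP-1, 0.168% that of SMAD and 12.6% that of TEAD. The letters TATAAA were found in 3 windows of the genes and in 12.4% of all start sites. Among the 3 are both windows of Tnc, which overlap and hold the same site. The CCAAT box was found in 2 windows and in 33.8% of all. No match says only that these letters are not in these windows.

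Expression of beta-catenin went with a rise in 6 of the 9 genes and a fall in 2, and 1 did not pass the test. Of all tested genes 34.9% were called in this comparison, 19.6% as higher and 15.4% as lower. The rises in Tgfbi, Thbs1, Tnc, Fbln2 and Thbs3 were at least 2-fold, a size called for 4.62% of all genes and upward for 3.01%, and the falls in Thbs2 and Fn1 were below 2-fold. In ICAT cells 8 of the 9 genes rose, while 37.2% of all genes were called and 18.7% rose. Of these, 6 rose at least 2-fold, a size called for 2.94% of all genes and upward for 2.49%. By limma none of the 9 fell in ICAT cells, and none was lower with an unadjusted p under 0.05, while 18.5% of all genes fell. The median log2 difference over the 9 genes was 1.83 in beta-catenin cells and 1.39 in ICAT cells, where the medians of all genes were -0.03 and -0.01. Both comparisons use the same control arrays and are therefore not independent. The direct comparison of the 2 lines takes no level from a control array, although these arrays enter its estimate of the spread, and in it 5 genes were higher and 2 lower in beta-catenin cells, each at least 2-fold. Of all genes 40.4% were called there, 22.5% as higher and 17.9% as lower, and 3.97% were called with at least 2-fold, 1.49% as higher. For 8 of the 9 genes the beta-catenin arrays did not overlap with control arrays, and for 8 the ICAT arrays did not, which was also so for 54.1% and 46.2% of all genes. Between the 2 transfected lines 7 of 9 did not overlap (47.6% of all genes).

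**Figure D1:**
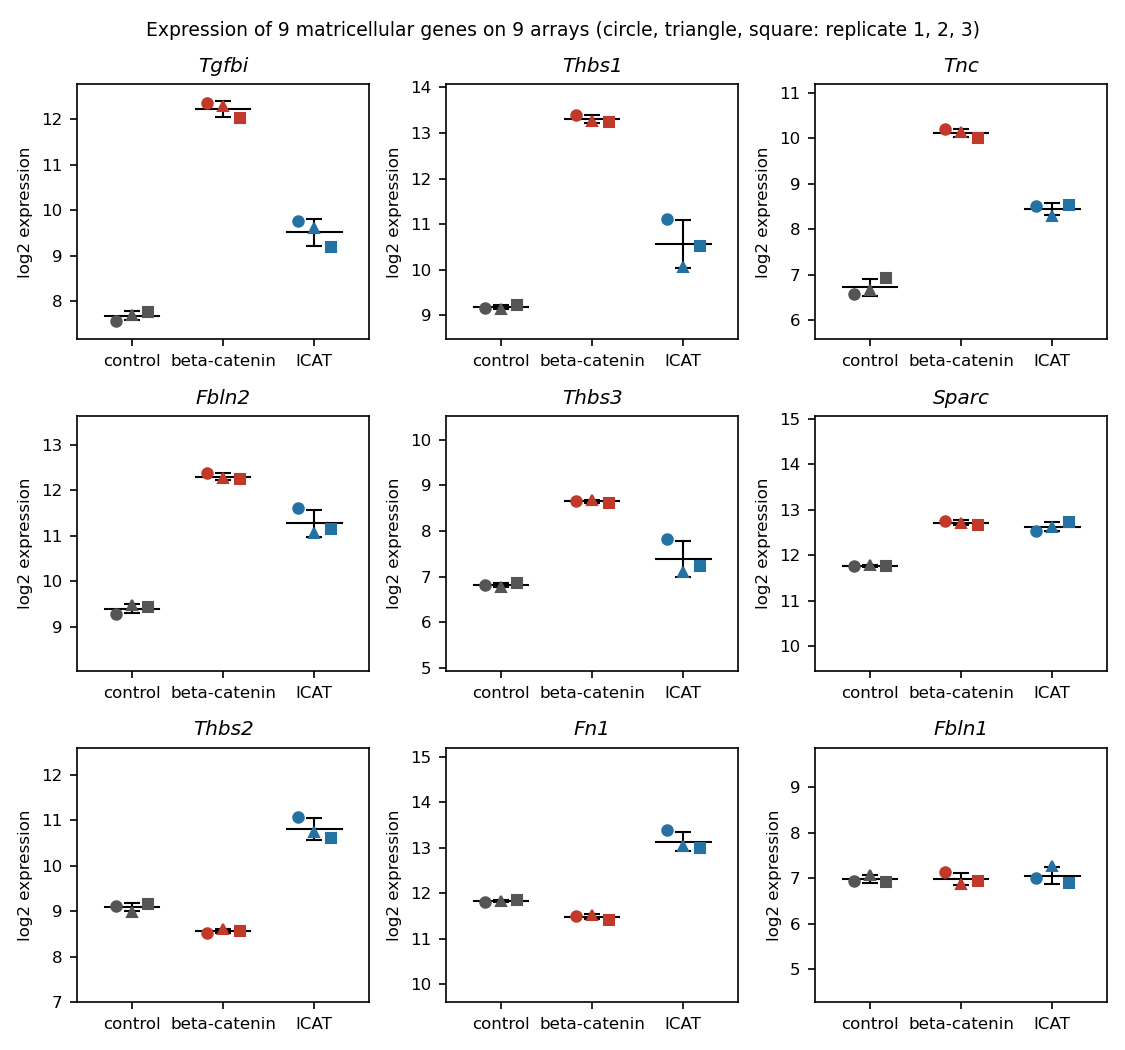
Log2 expression of the 9 genes by their brightest probe set on each of 9 arrays (circle, triangle and square are replicates 1, 2 and 3), with the mean and SD of each group; all panels span the same number of log2 units. Tgfbi, Thbs1, Tnc, Fbln2 and Thbs3 were highest on the 3 beta-catenin arrays, Thbs2 and Fn1 on the 3 ICAT arrays, Sparc was raised in both lines and Fbln1 overlapped in all 3 groups.

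TGFBI is a secreted protein with fasciclin domains that binds collagen and integrins, and its gene is a classical TGF-beta target. Tgfbi values were 7.58, 7.70 and 7.78 in control cells, 12.35, 12.30 and 12.02 in beta-catenin cells and 9.76, 9.61 and 9.19 in ICAT cells. The 3 groups did not overlap, and ICAT arrays lay between the other two groups. Tgfbi had the third largest upward log2 difference among the 15235 genes in beta-catenin cells, at 4.54 ± 0.136 (SE; 23.2-fold, adjusted p = 1.21e-09). In ICAT cells the difference was 1.83 ± 0.136 (3.56-fold, adjusted p = 2.64e-06). Beta-catenin cells were 6.52-fold above ICAT cells (log2 difference 2.70, adjusted p = 9.48e-08). All 4 probe sets of Tgfbi were called upward in both lines, with log2 differences from 4.37 to 4.54 in beta-catenin and from 1.65 to 1.83 in ICAT cells.

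Thrombospondin 1 is a trimeric glycoprotein that binds CD47 and CD36, restrains blood vessel growth and can activate latent TGF-beta. Thbs1 values were 9.16, 9.13 and 9.22 in control cells, 13.40, 13.26 and 13.25 in beta-catenin cells and 11.10, 10.06 and 10.52 in ICAT cells. Again the groups did not overlap, but the ICAT arrays were spread over more than 1 log2 unit. The log2 difference was 4.14 ± 0.192 (SE) in beta-catenin cells (17.6-fold, adjusted p = 3.33e-08) and 1.39 ± 0.192 in ICAT cells (2.63-fold, adjusted p = 0.000183). Beta-catenin cells exceeded ICAT cells 6.69-fold (adjusted p = 1.02e-06). The second probe set rose 19.2-fold in beta-catenin and 2.54-fold in ICAT cells.

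Thrombospondin 3 belongs to the pentameric branch of the family. Thbs3 values were 6.81, 6.78 and 6.85 in control cells, 8.65, 8.67 and 8.62 in beta-catenin cells and 7.83, 7.10 and 7.23 in ICAT cells. The order of the groups was that of Thbs1, with smaller steps. Thbs3 rose 3.56-fold in beta-catenin cells (log2 difference 1.83 ± 0.146 SE, adjusted p = 2.00e-06) and 1.49-fold in ICAT cells (0.57 ± 0.146, adjusted p = 0.0092). Without ICAT replicate 1 the latter log2 difference was 0.35 (limma adjusted p = 0.002). Beta-catenin cells were 2.40-fold above ICAT cells (adjusted p = 4.40e-05).

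Thrombospondin 2 has the same trimeric build as thrombospondin 1, restrains vessel growth too and helps clear MMP2 through the receptor LRP1. Its gene went the other way in beta-catenin cells. Thbs2 values were 9.12, 8.99 and 9.17 in control cells, 8.53, 8.62 and 8.57 in beta-catenin cells and 11.07, 10.75 and 10.60 in ICAT cells. The groups did not overlap, with ICAT arrays on top and beta-catenin arrays at the bottom. Thbs2 rose 3.28-fold in ICAT cells (log2 difference 1.71 ± 0.104 SE, adjusted p = 8.19e-07) and fell 1.44-fold under beta-catenin (-0.52 ± 0.104, adjusted p = 0.00217). It was 4.70-fold lower in beta-catenin than in ICAT cells (adjusted p = 5.23e-08). The increase in ICAT cells was called by all 3 probe sets (3.28-fold to 4.13-fold). The fall in beta-catenin cells was called by the brightest alone, the others lying at -0.17 and 0.01 on the log2 scale (adjusted p = 0.39 and 0.964 over all probe sets). With the mean of the 3 probe sets the difference was -0.23 and was not called (adjusted p = 0.182).

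Fibronectin is the fibril-forming glycoprotein on which collagens, fibulins and tenascins assemble, and cells hold it mainly through integrin alpha5 beta1. Fn1 showed the pattern of Thbs2. Its values were 11.81, 11.83 and 11.86 in control cells, 11.50, 11.53 and 11.42 in beta-catenin cells and 13.38, 13.03 and 12.99 in ICAT cells. No 2 groups overlapped. Fn1 rose 2.46-fold in ICAT cells (log2 difference 1.30 ± 0.0938 SE, adjusted p = 2.19e-06) and fell 1.27-fold under beta-catenin (-0.35 ± 0.0938, adjusted p = 0.0126). Beta-catenin cells were 3.14-fold below ICAT cells (adjusted p = 2.18e-07). The second Fn1 probe set rose 1.60-fold in ICAT cells (adjusted p = 0.0202 over all probe sets) and lay at -0.37 in beta-catenin cells without passing (adjusted p = 0.208). The mean of both probe sets gave -0.36 in beta-catenin cells and was not called (adjusted p = 0.0728).

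Tenascin C is a large many-armed matrix protein of embryonic tissue, wounds and tumour stroma that loosens the hold of cells on fibronectin. Tnc values were 6.57, 6.66 and 6.93 in control cells, 10.19, 10.13 and 10.01 in beta-catenin cells and 8.50, 8.29 and 8.53 in ICAT cells. The groups did not overlap. Tnc rose 10.5-fold in beta-catenin cells (log2 difference 3.39 ± 0.101 SE, adjusted p = 1.21e-09) and 3.29-fold in ICAT cells (1.72 ± 0.101, adjusted p = 6.82e-07). The step between the 2 lines was 3.18-fold (adjusted p = 3.38e-07). A second, dimmer probe set lay under log2 5 on all control and ICAT arrays and rose by at least 1.68-fold under beta-catenin (adjusted p = 7.08e-06 over all probe sets). It was not called in ICAT cells, where the difference was 0.30 (adjusted p = 0.334).

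Sparc encodes a calcium-binding and collagen-binding protein also called osteonectin. Its values were 11.75, 11.79 and 11.77 in control cells, 12.76, 12.71 and 12.65 in beta-catenin cells and 12.53, 12.62 and 12.74 in ICAT cells. Both lines lay above control on all arrays and overlapped each other. Sparc rose 1.91-fold in beta-catenin cells (log2 difference 0.94 ± 0.0673 SE, adjusted p = 9.22e-07) and 1.81-fold in ICAT cells (0.86 ± 0.0673, adjusted p = 3.98e-06). The difference between the lines was 0.08 (95% interval -0.07 to 0.23, adjusted p = 0.397). The second probe set rose 1.93-fold in beta-catenin and 1.92-fold in ICAT cells. The third, at about log2 7 in all groups, was called in neither line (differences of -0.03 and 0.10, adjusted p = 0.868 and 0.453 over all probe sets).

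Fibulins are elongated proteins that link fibronectin, basement membrane and elastic fibres. Fbln2 values were 9.29, 9.48 and 9.44 in control cells, 12.38, 12.28 and 12.25 in beta-catenin cells and 11.62, 11.07 and 11.14 in ICAT cells. The groups did not overlap. Fbln2 rose 7.47-fold in beta-catenin cells (log2 difference 2.90 ± 0.124 SE, adjusted p = 1.75e-08) and 3.67-fold in ICAT cells (1.87 ± 0.124, adjusted p = 1.32e-06), and beta-catenin cells were 2.04-fold above ICAT cells (adjusted p = 5.86e-05). Its dim second probe set rose by at least 1.86-fold under beta-catenin and was not called in ICAT cells (adjusted p = 0.0576 over all probe sets).

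Fbln1 was the 1 gene of the 9 that was called in no comparison. Its values were 6.95, 7.08 and 6.92 in control cells, 7.14, 6.89 and 6.94 in beta-catenin cells and 7.01, 7.27 and 6.90 in ICAT cells. All 3 groups overlapped. The log2 difference from control was 0.01 in beta-catenin cells (95% interval -0.21 to 0.23, adjusted p = 0.957) and 0.08 in ICAT cells (-0.14 to 0.30, adjusted p = 0.612). Of its 2 dimmer probe sets, 1 passed in ICAT cells, with 1.27-fold (adjusted p = 0.0435 over all probe sets), although its ICAT arrays touched the range of the control arrays. The other lay at 0.37 in beta-catenin cells, with all beta-catenin arrays above control, and was not called (adjusted p = 0.0705 over all probe sets).

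**Figure D2:**
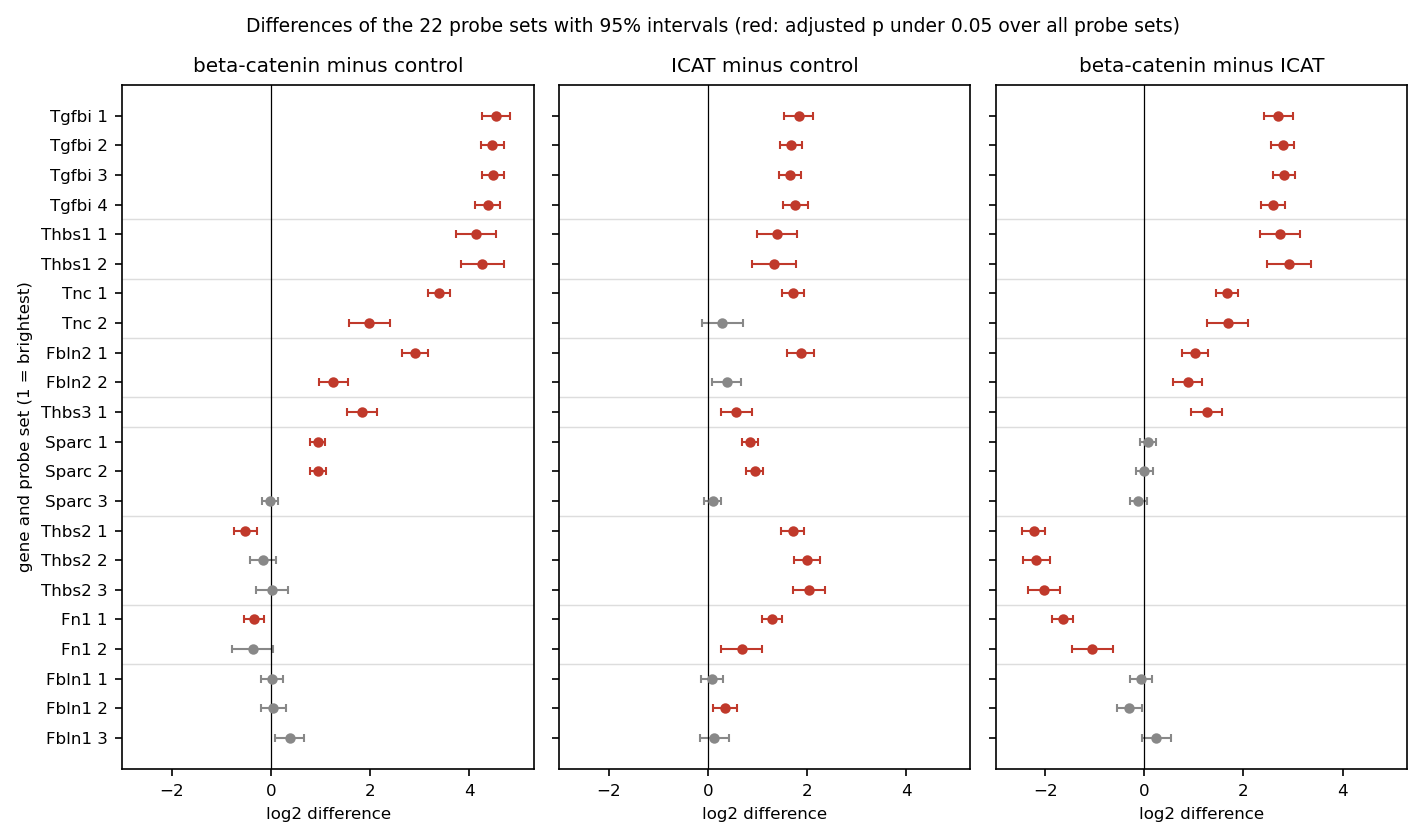
Log2 differences of the 22 probe sets in the 3 comparisons (columns) with 95% intervals, ordered by gene and brightness; red marks an adjusted p under 0.05 over all 45037 probe sets. The 4 Tgfbi and 2 Thbs1 probe sets lie close together in each column, and dim second probe sets of Tnc and Fbln2 show smaller differences from control. The 3 Thbs2 probe sets spread most in the first column, where only the brightest is called.

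Counted by probe set, 13 of the 22 were called higher and 2 lower under beta-catenin, and 22.1% of all 45037 probe sets were called, 11.9% as higher and 10.2% as lower. In ICAT cells 17 rose. By limma none fell, and none was lower with an unadjusted p under 0.05, while 23.1% of all probe sets were called, 11.1% as higher and 12% as lower. Between the lines 11 were higher and 5 lower in beta-catenin cells, and 26% of all were called, 14.4% as higher and 11.6% as lower. Probe sets of 1 gene share their RNA and are not replicates of each other. The Thbs2 and Fn1 probe sets all had the same sign between the lines, from -2.23 to -2.03 for Thbs2 and from -1.65 to -1.05 for Fn1.

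Replicates varied most in ICAT cells, where the SD of the 9 genes ranged from 0.102 for Sparc to 0.522 for Thbs1. In control cells it ranged from 0.0203 to 0.189 and in beta-catenin cells from 0.0242 to 0.179. One array was the highest for 6 of the 9 genes in each group. In control cells this was replicate 3 (32.9% of all tested genes) and in beta-catenin cells replicate 1 (31.8%). Beta-catenin replicate 3 was the lowest for 7 (31.6%). ICAT replicate 1 was the highest ICAT array for 6 of the 9 genes (Thbs1, Thbs2, Thbs3, Tgfbi, Fn1 and Fbln2), and for 29.5% of all tested genes. Without it, the same 8 genes rose in ICAT cells, with log2 differences of 1.12 for Thbs1, 1.58 for Thbs2, 1.71 for Tgfbi, 1.18 for Fn1 and 1.70 for Fbln2.

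**Figure D3:**
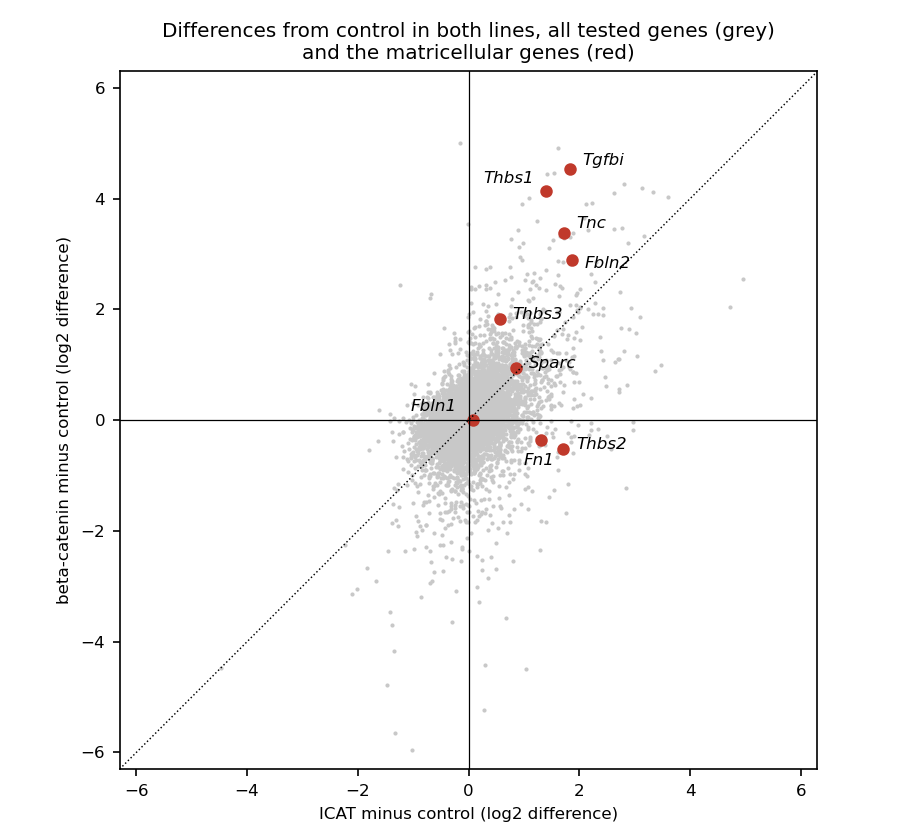
Log2 difference from control in ICAT cells (horizontal axis) and in beta-catenin cells (vertical axis) for 15235 tested genes (grey) and the 9 genes (red, named); the dotted line marks equal differences, and both axes share the control arrays. Tgfbi, Thbs1, Tnc, Fbln2 and Thbs3 lie above the line, Sparc and Fbln1 on or near it, and Thbs2 and Fn1 to the lower right.

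For each gene with group means at least 1 log2 unit apart, the 2 genes with the nearest pair of differences from control were looked up among 15226 others. The measure is the distance between the 2 pairs of log2 differences over 3 groups, and it describes likeness of pattern alone. Nearest to Tgfbi were the chemokine gene Cxcl12 (distance 0.30) and the kinase gene Dclk1 (0.43), and nearest to Thbs1 were Dclk1 (0.31) and Pwwp3b (0.33). Tnc lay closest to 2510009E07Rik (0.09) and the myelin protein gene Pmp22 (0.10). Fbln2 lay closest to the gelatinase gene Mmp2 (0.09) and Ptgr1 (0.17), and Thbs3 to Cachd1 (0.05) and Id4 (0.09). Thbs2 was nearest to the enolase gene Eno2 (0.11) and Txnip (0.18), and Fn1 to the netrin gene Ntn1 (0.07) and the keratin gene Krt18 (0.09). Within the same distance, many more genes lay around Thbs3 and Fn1 than around Tgfbi and Thbs1. A small distance alone therefore does not mark a rare pattern.

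Of the other matricellular and fibulin-family genes 23 were tested. In beta-catenin cells 7 rose and 2 fell (median log2 difference 0.08), and in ICAT cells 8 rose and 1 fell (0.11). Thus 9 of 23 were called in each of these comparisons, against 34.9% and 37.2% of all tested genes. Of all genes, 19.6% and 18.7% were called as higher and 15.4% and 18.5% as lower. The same shares are the background for the lists and markers that follow. Whether any list was called more often than all genes was not tested. The number that fell in ICAT cells was 2 without ICAT replicate 2 and 0 by limma without ICAT replicate 3. The SPARC relative Fstl1 rose 4.23-fold under beta-catenin and 3.85-fold under ICAT, and the calcification inhibitor gene Mgp rose 4.12-fold and 26.3-fold. Ccn4, a Wnt-inducible CCN protein gene, rose 3.27-fold under beta-catenin and 1.33-fold under ICAT, the latter not called without ICAT replicate 2 (1.32-fold, limma adjusted p = 0.0681) or replicate 3 (0.26 on the log2 scale, adjusted p = 0.0544). Efemp1, which encodes fibulin 3, fell 3.54-fold in the first line and rose 2.49-fold in the second, and lay 8.81-fold lower in beta-catenin than in ICAT cells (adjusted p = 1.44e-09). Periostin (Postn) and fibulin 5 (Fbln5) rose 3.87-fold and 2.94-fold in ICAT cells and were not called in beta-catenin cells (adjusted p = 0.329 and 0.148). Between the lines they were 3.23-fold and 3.28-fold lower in beta-catenin cells, both called.

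Among 24 tested receptors of these proteins, 5 were higher and 8 lower in beta-catenin cells (median -0.11), and 10 were higher and 2 lower in ICAT cells (median 0.15). Itgb8, whose integrin binds latent TGF-beta, fell at least 3.67-fold with beta-catenin and rose 2.45-fold with ICAT. Lrp1, the uptake receptor for thrombospondins, fell 2.29-fold and rose 1.47-fold, and Itga8, an integrin subunit that binds fibronectin and tenascin C, fell 1.82-fold and rose 1.63-fold in the same order. Between the lines Itgb8 was at least 9.02-fold, Lrp1 3.36-fold and Itga8 2.97-fold lower in beta-catenin cells. Antxr1, a collagen-binding receptor, rose 3.30-fold and 1.97-fold, and Itgb5, an integrin subunit for vitronectin, 2.48-fold and 2.03-fold. Sdc4, a fibronectin co-receptor at focal adhesions, rose 1.82-fold in ICAT cells (adjusted p = 0.000146) and was not called in beta-catenin cells (adjusted p = 0.707).

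Microfibril and elastic fibre partners had 2 of 17 genes higher and 3 lower in beta-catenin cells (median 0.02), and 8 higher and 1 lower in ICAT cells (median 0.39). Without ICAT replicate 1, 4 were called higher in beta-catenin cells and 2 lower in ICAT cells. Without ICAT replicate 2 or 3 none was called lower in ICAT cells by limma, where Mfap4 lay at -0.31 (adjusted p = 0.057) and -0.19 (adjusted p = 0.151). The elastic fibre glycoprotein gene Emilin1 rose 1.97-fold under beta-catenin and 2.74-fold under ICAT, and the small proteoglycan gene biglycan (Bgn) 1.62-fold and 3.14-fold. Emilin2 rose 2.82-fold with ICAT and was not called with beta-catenin (adjusted p = 0.322). Ltbp3, which anchors latent TGF-beta in the matrix, fell 1.2-fold with beta-catenin and rose 1.36-fold with ICAT. Efemp1 and Fbln5 are counted in this list as well.

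TGF-beta genes had 6 of 17 members higher and 3 lower in beta-catenin cells (median 0.12), and 7 higher and 3 lower in ICAT cells (median 0.28). The ligand gene Tgfb2 had a level of 6.72 ± 0.0883 in control cells (SD, n = 3), of 9.25 ± 0.0205 where beta-catenin and of 7.38 ± 0.308 where ICAT was expressed, a rise of 5.81-fold and 1.58-fold. The inhibitory Smad6 rose 5.17-fold and 1.24-fold, and the second was not called without ICAT replicate 1 (1.13-fold, limma adjusted p = 0.0538) or with quantile normalization (1.21-fold, adjusted p = 0.0517). Tgfb3 rose 1.22-fold under beta-catenin and 1.86-fold under ICAT. The receptor gene Tgfbr2 rose 2.12-fold with ICAT and was not called with beta-catenin (adjusted p = 0.399), and the co-receptor gene Tgfbr3 fell 1.47-fold with beta-catenin and rose 1.85-fold with ICAT. Skil, which encodes the SMAD repressor SnoN, rose 1.48-fold and 1.35-fold.

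Of 22 tested proteases and cross-linkers that act on these proteins, 8 were higher and 8 lower in beta-catenin cells (median -0.11), and 9 were higher and 4 lower in ICAT cells (median 0.16). Mmp2 rose 7.07-fold and 3.56-fold, and the aggrecanase gene Adamts5 3.83-fold and 2.16-fold. The tissue factor gene F3 rose 3.63-fold and 1.81-fold. The stromelysin gene Mmp3 fell 11.8-fold with beta-catenin and was not called with ICAT (adjusted p = 0.099). Tgm2, the transglutaminase that cross-links fibronectin, rose 5.93-fold with ICAT and fell 1.43-fold with beta-catenin, and was 8.47-fold lower in beta-catenin than in ICAT cells (adjusted p = 1.44e-09). The urokinase gene Plau fell in both lines, 2.82-fold and 2-fold.

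**Figure D4:**
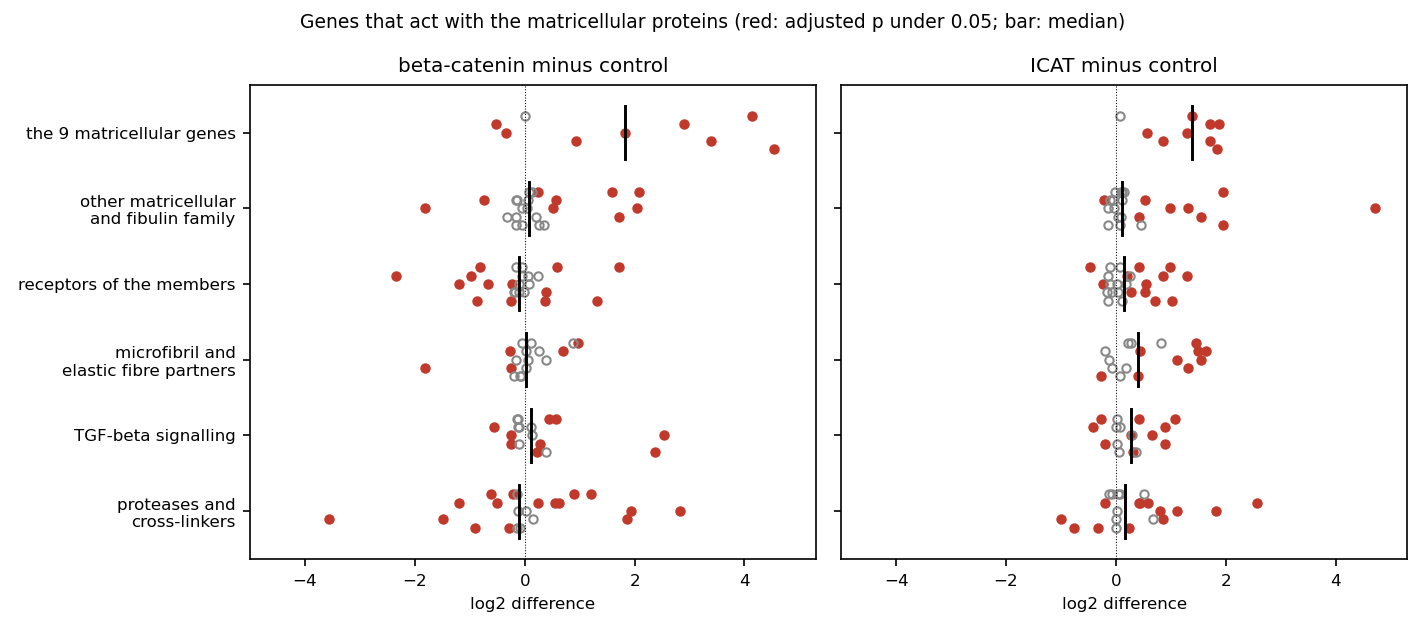
Log2 differences from control in beta-catenin cells (left) and ICAT cells (right) for the 9 genes and 5 lists of genes that act with them; each point is a tested gene (red, adjusted p under 0.05; open, not called), the vertical bar is the median and the vertical offset only separates points. The medians of the 9 genes are 1.83 and 1.39, and those of the 5 lists lie between -0.11 and 0.39.

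Most tested fibroblast markers rose in ICAT cells. In beta-catenin cells the called markers went both ways, while the summed level was below control. Of 10 tested markers 3 were called higher and 2 lower under beta-catenin, and 5 higher and 2 lower without ICAT replicate 1. With all arrays Pdgfra (4.11-fold), Acta2 (2.48-fold) and Col1a1 (2.20-fold) rose under beta-catenin, and Col1a2 (2.63-fold) and Col3a1 (1.36-fold) fell. In ICAT cells 8 rose, none fell by limma, and none was lower with an unadjusted p under 0.05. Without ICAT replicate 2 the call of Pdpn was lost (1.17-fold, limma adjusted p = 0.0779), which left 7. The summed fibroblast level was taken as log2 of the sum of linear values over 12 markers. It was 13.68 to 13.69 in control, 13.22 to 13.36 in beta-catenin and 14.62 to 14.73 in ICAT cells. Such a sum is set mostly by its brightest genes, in control cells Col3a1 and Col1a2, the 2 that fell under beta-catenin. Control cells themselves had Col3a1 at 12.70 and Col1a2 at 12.17, and 2 of the 12 markers, Lum and Fap, were under log2 5 on every array. Of 8 tested epithelial and ductal markers 4 rose in ICAT cells, among them Krt18 (2.43-fold) and Krt8 (1.85-fold). The call of Krt19 was lost without ICAT replicate 2 (1.19-fold, limma adjusted p = 0.111) or 3 (1.17-fold, adjusted p = 0.115), with centred arrays (adjusted p = 0.0582) and with quantile normalization (adjusted p = 0.0503), which left 3 in each case. None was called in beta-catenin cells by limma, where 1 was higher and none lower at an unadjusted p of 0.05. Without ICAT replicate 1, 1 was called higher and 1 lower there, and 1 was called higher without ICAT replicate 3 and with centred arrays. The summed epithelial level was 10.20 to 10.28 in control, 10.19 to 10.23 in beta-catenin and 10.61 to 10.89 in ICAT cells. Leukocyte markers had 2 of 7 lower in beta-catenin cells and none called in ICAT cells by limma (1 higher and 1 lower at an unadjusted p of 0.05), where 1 was called lower without ICAT replicate 1. Endothelial markers had 2 of 5 lower in beta-catenin cells and 1, Tie1, lower in ICAT cells, which was lost without ICAT replicate 3 (limma adjusted p = 0.084). The summed leukocyte level over 9 markers was 9.73 to 9.80 in control, 9.46 to 9.52 in beta-catenin and 9.67 to 9.82 in ICAT cells, and the summed endothelial level over 8 markers 8.87 to 8.97, 8.69 to 8.87 and 8.81 to 8.92. The part of a change in cell make-up in the differences of the 9 genes was not tested.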

How the data were processed

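RNA of 9 cultures was measured on Affymetrix arrays. The authors deposited log2 values per probe set, computed with RMA (affy), per the submitters' processing notes. RMA makes differences of dim probe sets smaller and would not show a shift of all genes. Of 45037 probe sets, 34945 have 1 gene symbol in the platform annotation, 932 several and 9160 none. Entrez identifiers gave current symbols for 34741. The brightest single-gene probe set stood for each gene (18193 genes), and the 15235 genes reaching log2 5 on at least 3 arrays were tested. The fit used limma 3.58.1 (R 4.3.3) with a mean for each group over the 9 arrays, two-sided moderated tests and Benjamini-Hochberg adjustment over all genes (6 residual and 5.03 prior degrees of freedom). A second fit covered all 45037 probe sets unfiltered. In a group with a mean under 5, lower values were raised to 5, which makes the fold a lower bound. For 3 arrays against 3, exact permutation gives no p under 0.1. No arrays were identical. The sample titles call the arrays of each group biological replicates. They do not say that replicates are separate transfections, so p-values reflect the spread among these samples alone. Precision is limited by the number of arrays, 3 in a group. The scripts were tested on simulated data.

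The members, gene lists and rules were chosen with earlier results of these data known. Named are all members, up to 4 called genes of each list per comparison with the largest differences, the 2 nearest genes of each member with group means at least 1 log2 unit apart, and the transfected genes; not every such list gene is described, and a few others are named to complete a list. Alternatives were the filter, array weights, the variance model, 2-group fits, probe set averaging, scaling, a floor, a replicate block and leaving out each array.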

Additional observations from a re-analysis of the deposited data

Results flagged for a closer look

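Thbs2 and Fn1 differed between the lines and were called in opposite directions against control. The log2 difference between beta-catenin and ICAT cells was -2.23 for Thbs2 (3 of 3 beta-catenin arrays below all ICAT arrays, limma adjusted p = 5.23e-08) and -1.65 for Fn1 (3 of 3, adjusted p = 2.18e-07). That difference held in every probe set of both genes, whereas the fall against control in beta-catenin cells was called by the brightest probe set of each alone. The second Fn1 probe set had a difference of -0.37, of like size, with 3 of 3 beta-catenin arrays below control.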

How the results depend on the processing

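Of 27 differences (9 genes in 3 comparisons) 23 were called, and 21 of these were called under all alternatives run, while the 4 not called were called under none. The falls of Thbs2 and Fn1 in beta-catenin cells were lost with the mean of all probe sets of a gene (-0.23, adjusted p = 0.182, and -0.36, adjusted p = 0.0728). Over the 19 alternatives the adjusted p of these falls ranged from 2.50e-05 to 0.182 and from 0.000308 to 0.0728. With array weights 8324 genes were called in beta-catenin against control, where 5321 were called without. Leaving out 1 array gave 8, 8 and 7 members called in the 3 comparisons each time. Deviations of same-numbered arrays correlated from -0.13 to 0.41, and those of replicate 3 were positive in all 3 comparisons (0.12, 0.17 and 0.41). The labels do not say whether same-numbered arrays were handled together, and the main fit used no block. With a replicate block 5524, 5853 and 6389 genes and again 8, 8 and 7 members were called. Centring, quantile normalization and leaving out each ICAT array were tried on the lists and markers after seeing the data. They turned the sign of no called gene there, and 21 of 188 calls over the 3 comparisons were lost in at least 1 of these 5 settings. The number of arrays and the low signal of dim probe sets limit small differences.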
